A study of Rattus norvegicus with 28 samples.

Results

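Serotonin acts on a family of receptors, and the transcripts of 10 of its genes were followed in rat prefrontal cortex after psilocybin, ketanserin or both. The members were chosen by name: Htr1a, Htr1b, Htr1d, Htr1f, Htr2a, Htr2c, Htr3a, Htr4, Htr5a and Htr7, each with 1 of the 36387 gene records of the deposited count table. The tissue came from adult male Sprague-Dawley rats, an outbred stock, 8 weeks old on arrival and killed 24 h after injection, with 4 animals in each of 7 groups and 28 libraries in all. Each animal had 2 intraperitoneal injections: ketanserin or its Tween-80 vehicle, then psilocybin or saline. The groups were psilocybin alone at 1 mg/kg and at 3 mg/kg, ketanserin alone at 1 mg/kg and at 3 mg/kg, ketanserin and psilocybin together at 1 mg/kg of each and at 3 mg/kg of each, and vehicle with vehicle. Every vehicle or single-drug animal thus also had the injection of the other solvent. The labels give no batch and number no replicates, so replicate numbers below only name libraries. RNA was taken from whole tissue, in which fewer cells of a type and less RNA per cell cannot be told apart.

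Serotonin receptors differ in what they switch on inside the cell. The receptors encoded by Htr2a and Htr2c couple to Gq proteins and phospholipase C, those of Htr1a, Htr1b, Htr1d, Htr1f and Htr5a to inhibitory Gi proteins, and those of Htr4, Htr6 and Htr7 to Gs proteins and adenylyl cyclase, while Htr3a encodes a subunit of a cation channel opened by serotonin. In cortex Htr2a is known from pyramidal neurons, Htr3a from a class of interneurons, and Htr1a from both. Psilocin, made in the body from psilocybin, is an agonist at several of these receptors, and ketanserin is an antagonist with high affinity for the Htr2a receptor and a lower one for the Htr2c receptor. The comparisons ask whether receptor transcripts differed a day after either drug or both.

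Of the 10 members, 8 had enough reads to be tested among 17404 genes, and Htr4 and Htr7 did not. Total counts per library ran from 12783067 to 18538414. All 8 cortical tissue markers were present in every library, led by the vesicular glutamate transporter Slc17a7 and the synaptic protein Snap25, with a summed level of 4857 to 5949 CPM (counts scaled by library size and TMM factor). Replicate 4 of the group given both drugs at 3 mg/kg stood apart: 19602 records had a count of 0 in it, against 15344 to 16657 in the other libraries. It was kept, and values without it are given for several results.

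Levels can be compared between genes only per length, for which the FPKM deposited by the authors were used (fragments scaled by gene length and library size). Htr2a led the family and Htr7 closed it. In vehicle animals Htr2a was at 7.28 ± 0.784 FPKM (SD, n = 4), Htr3a at 5.45 ± 1.01, Htr1a at 4.44 ± 1.87 and Htr2c at 3.34 ± 1.16 FPKM. Htr5a followed at 2.87 ± 1.10, Htr1b at 1.89 ± 1.17, Htr1d at 0.492 ± 0.216 and Htr1f at 0.265 ± 0.173 FPKM. Htr4, at 0.0447 ± 0.0517, and Htr7, at 0.0401 ± 0.0331 FPKM, were close to 0. Only 2 neighbours in this order were separate in vehicle animals: the lowest Htr1b library lay above the highest Htr1d library, and the lowest Htr1f library above the highest Htr4 library.

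Over all 28 libraries most neighbours kept this order in most libraries, except Htr1a and Htr2c. Htr2a was above Htr3a in 25 libraries, Htr3a above Htr1a in 20, and Htr1a above Htr2c in only 12. Htr2c was above Htr5a in 21 libraries, Htr5a above Htr1b in 25 and Htr1b above Htr1d in all 28. Htr1d was above Htr1f in 24, Htr1f above Htr4 in 24 and Htr4 above Htr7 in 19. Htr2a made up 28.3 ± 4.39% of the summed FPKM of the 10 genes in vehicle animals (SD, n = 4), and between 18.2% and 41.3% in single libraries of all groups. Taking the median over 28 libraries exchanged the places of Htr1a and Htr2c. Leaving out vehicle replicate 2 exchanged Htr2c and Htr5a, and leaving out vehicle replicate 3 exchanged Htr4 and Htr7.

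**Figure D1:**
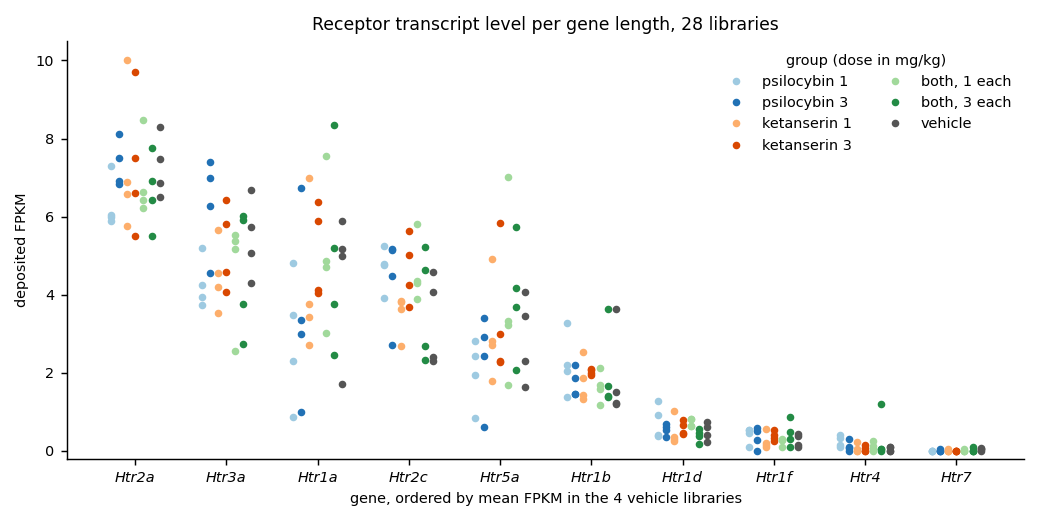
Deposited FPKM (vertical axis) of the 10 receptor genes in each of 28 libraries, coloured by group and ordered by the vehicle mean. Htr2a has a median of 6.84 FPKM and a lowest value of 5.49 FPKM, while Htr4 and Htr7 lie near 0 apart from 1 Htr4 value of 1.19 FPKM.

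The length that enters these values is that of the annotated record, from 1125 bases for Htr1d to 4619 bases for Htr2a. For Htr1a, Htr1b, Htr1d and Htr1f the record is a single block whose span on the genome equals its length, and reads beyond it were not counted for the gene. An assembled transcript without a gene name, spanning 33875 bases of the genome, began 4 bases past the 3′ end of Htr1b on the same strand and had 0.686 to 5.87 CPM. Its level and that of Htr1b had a Pearson r of -0.03 over 28 libraries with group means removed (permutation p = 0.907). Whether it belongs to the Htr1b transcript was not tested. Htr2c holds 7 small RNA records within its span, with a mean count of at most 0.0714.

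In none of the 6 treated groups did a difference from vehicle pass the test for any of the 8 tested genes. EdgeR's quasi-likelihood test with Benjamini-Hochberg adjustment over all 17404 genes called 0 of 8 in each of these 6 comparisons, with adjusted p of 0.997 to 1.00. At an unadjusted p under 0.05 the count was also 0 of 8 in each of the 6, and DESeq2 called 0 members. Over all genes edgeR called 0% in 5 of these comparisons and 0.00575% after both drugs at 3 mg/kg. Among all tested genes 1.66% had an unadjusted p under 0.05 after psilocybin at 1 mg/kg, 3.01% at 3 mg/kg, 2.07% after ketanserin at 1 mg/kg, 2% at 3 mg/kg, and 1.3% and 3.13% after both drugs at 1 and 3 mg/kg of each. What the data can bound differed between the genes: the 95% interval of a log2 fold change extended by at most 0.335 to either side for Htr2a and by up to 1.61 for Htr1f.

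**Figure D2:**
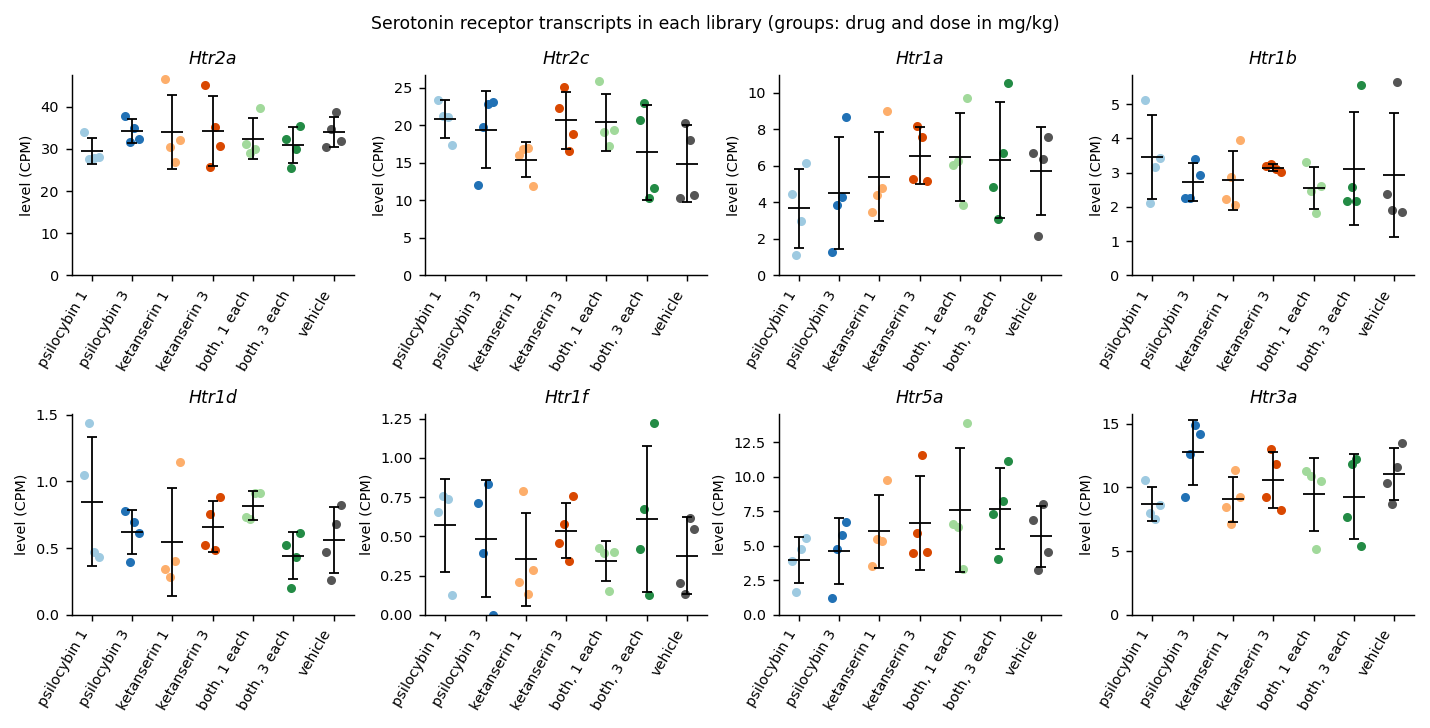
Level in CPM (vertical axis) of the 8 tested genes in each library, by group; horizontal marks are means and bars 1 SD (n = 4). The groups overlap with vehicle in every panel, and Htr1a and Htr5a spread more between libraries than Htr2a, Htr2c and Htr3a.

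Htr2a, the Gq-coupled receptor that ketanserin blocks (chromosome 15, 56666012 to 56735382, plus strand; all gene positions are given on rn6, as deposited), had the narrowest spread of log2 CPM among the 8 tested genes. For its level this spread was ordinary, since 54.4% of genes of like level varied less. After psilocybin at 1 mg/kg it was at 34.1, 27.5, 27.9 and 28.2 CPM, and at 3 mg/kg at 37.9, 31.8, 34.9 and 32.4 CPM, against 30.6, 34.9, 38.7 and 32.0 CPM in vehicle animals. At 1 mg/kg 3 of the 4 psilocybin animals lay below every vehicle animal and the fourth lay among them. The log2 fold change against vehicle was -0.21 (SE 0.163) at 1 mg/kg and 0.01 (SE 0.162) at 3 mg/kg.

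Ketanserin alone at 1 mg/kg gave 46.6, 30.5, 26.8 and 32.2 CPM of Htr2a, and at 3 mg/kg 45.2, 25.7, 35.2 and 30.8 CPM. In each of these groups 1 animal lay above all vehicle animals and at least 1 lay below them all. The SD was 8.68 and 8.30 CPM at 1 and 3 mg/kg, against 3.58 CPM in vehicle animals. The log2 fold change was 0.00 and 0.01. With both drugs Htr2a was at 31.1, 29.1, 29.9 and 39.7 CPM at 1 mg/kg of each and at 32.4, 25.4, 30.1 and 35.5 CPM at 3 mg/kg of each, with log2 fold changes of -0.07 and -0.14. Over the 6 comparisons the 95% intervals ran from 0.686 to 1.27 times the vehicle level.

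Htr2c, its Gq-coupled relative (chromosome X, 118084890 to 118318039, plus strand), had a higher fitted level than vehicle in all 6 treated groups, but no difference passed the test. It was at 23.4, 21.3, 21.1 and 17.3 CPM after psilocybin at 1 mg/kg and at 12.1, 19.8, 22.8 and 23.1 CPM at 3 mg/kg, against 10.3, 20.3, 18.1 and 10.7 CPM in vehicle animals. Vehicle animals formed a lower and a higher pair, and all treated groups overlapped with them. The log2 fold changes were 0.48 (SE 0.251, unadjusted p = 0.0655 by edgeR) and 0.39 (SE 0.251).

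After ketanserin at 1 mg/kg Htr2c was at 16.1, 16.8, 17.0 and 11.9 CPM, and at 3 mg/kg at 22.3, 25.0, 16.5 and 18.8 CPM, with log2 fold changes of 0.06 (SE 0.252) and 0.48 (SE 0.251). With both drugs it was at 25.9, 19.2, 17.2 and 19.3 CPM at 1 mg/kg of each and at 20.7, 23.0, 10.4 and 11.7 CPM at 3 mg/kg of each, with log2 fold changes of 0.46 (SE 0.251) and 0.14 (SE 0.252). The 6 comparisons share the same 4 vehicle animals, and leaving out 1 of them moved the value. Without vehicle replicate 2 the log2 fold change at 1 mg/kg of psilocybin was 0.68, and without vehicle replicate 1 it was 0.34. With any single animal left out, the lowest adjusted p by edgeR was 0.758 in that comparison. The lowest unadjusted edgeR p was then 0.0169 and 0.0367 for psilocybin at 1 and 3 mg/kg, and 0.327 and 0.0175 for ketanserin. For both drugs it was 0.0213 and 0.212 at 1 and 3 mg/kg of each. The adjusted p stayed at 0.623 or higher in all 6 comparisons.

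The Gi-coupled members Htr1a and Htr5a varied more between animals than the Gq-coupled pair. Htr1a, the autoreceptor and heteroreceptor of cortex and raphe (chromosome 2, 36246628 to 36247896, plus strand), was at 4.45, 1.10, 2.96 and 6.18 CPM after psilocybin at 1 mg/kg and at 1.28, 3.84, 4.30 and 8.64 CPM at 3 mg/kg, against 6.70, 2.18, 6.38 and 7.55 CPM in vehicle animals. The psilocybin and vehicle animals overlapped, and the lowest animal of each of the 3 groups was at 1.10, 1.28 and 2.18 CPM. The log2 fold changes were -0.63 (SE 0.497) and -0.34 (SE 0.494). Without replicate 2 of the 1 mg/kg group the value was -0.33.

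Htr1a was at 3.47, 4.37, 4.79 and 8.97 CPM after ketanserin at 1 mg/kg and at 5.28, 8.19, 7.60 and 5.17 CPM at 3 mg/kg. Both drugs gave 6.06, 6.26, 3.87 and 9.70 CPM at 1 mg/kg of each and 4.85, 3.11, 6.70 and 10.5 CPM at 3 mg/kg of each. The log2 fold changes in these 4 groups lay between -0.08 and 0.20.

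Htr5a, a Gi-coupled receptor of forebrain neurons (chromosome 4, 199916 to 209599, plus strand), was at 3.86, 1.65, 4.78 and 5.55 CPM after psilocybin at 1 mg/kg and at 1.21, 4.80, 5.76 and 6.74 CPM at 3 mg/kg, against 6.90, 3.23, 8.06 and 4.53 CPM in vehicle animals. The groups overlapped, with log2 fold changes of -0.52 (SE 0.482) and -0.30 (SE 0.480). After ketanserin at 1 and 3 mg/kg the group means were 6.04 ± 2.64 and 6.64 ± 3.38 CPM, and after both drugs at 1 and 3 mg/kg of each 7.56 ± 4.49 and 7.69 ± 2.91 CPM, against 5.68 ± 2.19 CPM in vehicle animals (SD, n = 4 each). The log2 fold changes were 0.09, 0.22, 0.42 and 0.43 in that order of groups. Without the library that stood apart the last of these was 0.21.

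Htr1b, a receptor of axon terminals that restrains transmitter release (chromosome 8, 89129453 to 89130991, minus strand), was at 3.46 ± 1.23 and 2.71 ± 0.554 CPM after psilocybin at 1 and 3 mg/kg, at 2.77 ± 0.856 and 3.15 ± 0.100 CPM after ketanserin, and at 2.56 ± 0.609 and 3.12 ± 1.64 CPM after both drugs, against 2.94 ± 1.81 CPM in vehicle animals (SD, n = 4 each). The vehicle mean rests on replicate 3, at 5.64 CPM, with the other 3 at 1.85 to 2.37 CPM. The log2 fold changes in the same order of treated groups were 0.23, -0.12, -0.09, 0.09, -0.20 and 0.07. Without vehicle replicate 3 they were 0.76, 0.41, 0.44, 0.62, 0.33 and 0.60, all above 0, with unadjusted edgeR p of 0.0358 after psilocybin at 1 mg/kg (adjusted p = 1.00) and of 0.0797 or higher in the other groups. That replicate was picked for its high value, and the comparisons share the vehicle animals. Leaving it out therefore had to raise every value, and nothing is concluded from these values.

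Htr1d and Htr1f, among the targets of triptan migraine drugs, lay near the counting limit, with at most 21 and 16 counts in a library. Htr1d (chromosome 5, 154800226 to 154801350, plus strand) averaged 0.850 ± 0.485 and 0.621 ± 0.166 CPM after psilocybin at 1 and 3 mg/kg, 0.545 ± 0.405 and 0.661 ± 0.190 CPM after ketanserin, and 0.819 ± 0.108 and 0.443 ± 0.176 CPM after both drugs, against 0.561 ± 0.244 CPM in vehicle animals (SD, n = 4 each). Its log2 fold changes lay between -0.33 and 0.59. Htr1f (chromosome 11, 1982113 to 1983513, minus strand) averaged 0.343 to 0.610 CPM in the treated groups and 0.376 CPM in vehicle animals, with log2 fold changes of -0.12 to 0.66 and SEs of 0.756 to 0.782. The value of 0.66, after both drugs at 3 mg/kg of each, was 0.10 without the library that stood apart.

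Htr3a, the subunit needed for the serotonin-gated channel (chromosome 8, 53211438 to 53223804, minus strand), was the only member with an unadjusted p under 0.05 in any of 18 comparisons. It was at 9.23, 12.6, 14.9 and 14.2 CPM after psilocybin at 3 mg/kg, against 10.5, 7.97, 7.54 and 8.61 CPM at 1 mg/kg. Of the 4 animals at 3 mg/kg, 3 lay above all animals at 1 mg/kg and the remaining animal lay among them. The log2 fold change of the higher over the lower dose was 0.56 (SE 0.251, 95% interval 0.04 to 1.07). EdgeR's unadjusted p was 0.0363 and its adjusted p was 1.00. In that comparison 3.24% of all genes had an unadjusted p under 0.05 and 0% were called. Leaving out single animals gave 0.47 to 0.68.

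Against vehicle, at 10.3, 8.71, 11.6 and 13.5 CPM, Htr3a differed by -0.35 and 0.21 on the log2 scale after psilocybin at 1 and 3 mg/kg, so the doses lay on opposite sides of it. Ketanserin alone gave -0.29 and -0.06, and both drugs gave -0.22 and -0.25, at 1 and 3 mg/kg. The SE was 0.250 to 0.251 in all 6. Without the library that stood apart, the value after both drugs at 3 mg/kg was -0.06. In the group given both drugs at 1 mg/kg 1 animal was at 5.16 CPM and the other 3 were at 10.5 to 11.3 CPM.

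**Figure D3:**
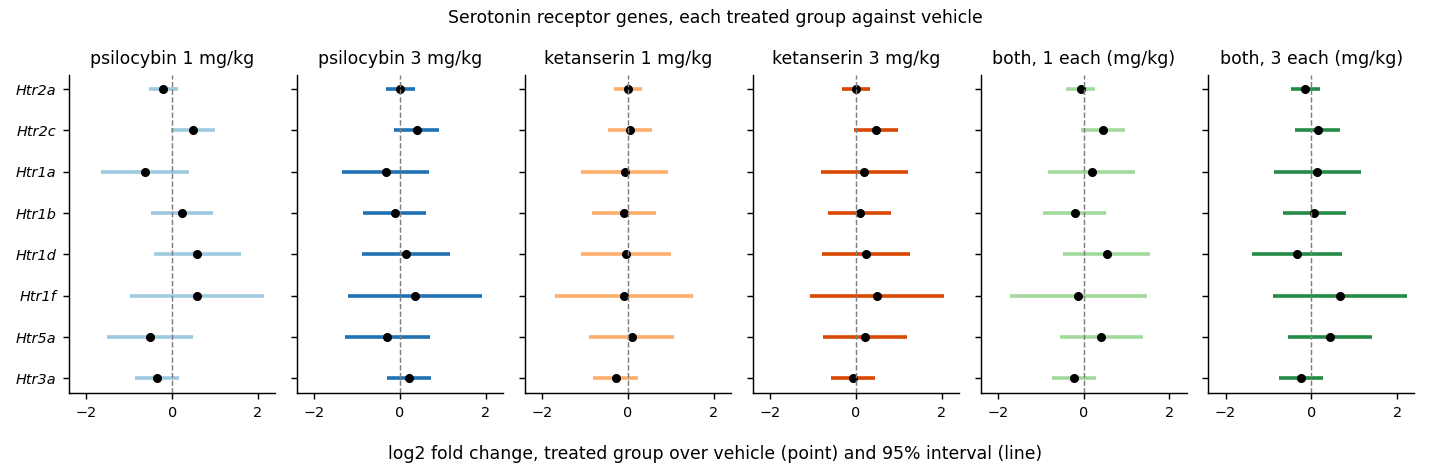
Log2 fold change of the 8 tested genes against vehicle (horizontal axis; points) with 95% intervals (lines) in each of the 6 treated groups. Every interval includes 0, and intervals are narrowest for Htr2a and widest for Htr1f.

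Htr4 and Htr7, the Gs-coupled members, were too sparse to test. Htr4 (chromosome 18, 57654290 to 57819698, plus strand) had 80 counts over all libraries, 0 in 9 of them, and 22 of the 80 in replicate 4 of the group given both drugs at 3 mg/kg, the library that stood apart. Psilocybin at 1 mg/kg was the only group with Htr4 reads in all 4 animals, at 7, 2, 3 and 9 counts, against 0, 2, 2 and 0 counts in vehicle animals. Htr7 (chromosome 1, 254549214 to 254671610, minus strand) had 9 counts in all and 0 in 21 libraries. A count of 0 allows up to 3 counts, or 0.162 to 0.235 CPM at the depth of these libraries, counting error only. These limits, unlike the other CPM, were scaled by total count without the TMM factor.

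No member was called in the other comparisons of the design. Ketanserin with psilocybin against psilocybin alone, the combination against ketanserin alone, the higher against the lower dose, the interaction at each dose and the pooled doses against vehicle gave 0 of 8 members called by edgeR. The background was 0% of all genes in each of these except the combination pooled over doses against vehicle, at 0.00575%. In the test of any difference among the 7 groups 0 of 8 members and 0.0172% of all genes were called, and the lowest unadjusted member p was 0.251. Outside the Htr3a result, unadjusted p of the members in these comparisons was 0.0538 or higher. Over all genes, 4.13% and 5.74% had an unadjusted p under 0.05 for both drugs against psilocybin alone at 1 and 3 mg/kg, 2.92% and 3.41% for both drugs against ketanserin alone, 1.64% for ketanserin at 3 against 1 mg/kg and 3.31% for both drugs at 3 against 1 mg/kg of each. The share was 4.09% and 3.2% for the interaction at 1 and 3 mg/kg, 1.96%, 2.1% and 1.8% for psilocybin, ketanserin and both drugs pooled over doses against vehicle, and 2.22% for any group difference. All 8 members were higher after ketanserin at 3 mg/kg than at 1 mg/kg, with a median log2 difference of 0.25, against 51.3% of all genes and a median of 0.01. Their log2 differences there ran from 0.01 to 0.59 and none passed the edgeR test, with a lowest unadjusted p of 0.107. This comparison was named after its values were seen. The members are also not independent, since Htr1a and Htr5a varied together between animals, as given below.

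In the 13 pairs of groups compared, the groups did not overlap for 2 of the 8 tested members, named after their values were seen. Htr2c was at 17.2 to 25.9 CPM after both drugs at 1 mg/kg of each, against 11.9 to 17.0 CPM after ketanserin alone at 1 mg/kg (log2 difference 0.40, SE 0.251, adjusted p = 1.00 by edgeR). In that comparison 1.57% of all genes lay wholly above. Htr1d was at 0.203 to 0.610 CPM after both drugs at 3 mg/kg of each, against 0.717 to 0.913 CPM at 1 mg/kg of each (log2 difference -0.87, SE 0.501, adjusted p = 1.00 by edgeR), where 0.873% of all genes lay wholly below. In the same comparisons no member lay wholly on the other side, where 1.56% of all genes lay below with both drugs against ketanserin at 1 mg/kg and 0.465% above with both drugs at 3 against 1 mg/kg of each. None of the 8 did so in the other 11 pairs compared. In a pair that was not tested, Htr2c was at 17.3 to 23.4 CPM after psilocybin at 1 mg/kg, against 11.9 to 17.0 CPM after ketanserin at 1 mg/kg. That pair was also picked after its values were seen. The share of all genes without overlap in it was not computed, so nothing is concluded from it. Against vehicle, 0.563% of all genes lay wholly above and 0.793% below for psilocybin at 1 mg/kg, 0.942% and 1.17% at 3 mg/kg, 0.718% and 1.15% for ketanserin at 1 mg/kg, 0.672% and 1.03% at 3 mg/kg, 0.667% and 0.649% for both drugs at 1 mg/kg of each, and 0.396% and 0.741% at 3 mg/kg of each. For both drugs against psilocybin alone these shares were 1.62% and 1.73% at 1 mg/kg and 0.689% and 0.908% at 3 mg/kg, and for both drugs against ketanserin alone at 3 mg/kg they were 0.649% and 1.05%. For the higher against the lower dose they were 1.36% and 1.25% with psilocybin and 1.05% and 0.931% with ketanserin.

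The members differed in how much animals of the same group varied. The residual SD of log2 CPM, with group means removed, was 0.231 for Htr2a, 0.371 for Htr3a, 0.377 for Htr2c, 0.465 for Htr1b, 0.521 for Htr1d, 0.741 for Htr5a, 0.768 for Htr1a and 0.848 for Htr1f. Htr1f rested on a mean of 7.07 counts per library, and Htr1a and Htr5a on 84.6 and 92.9 counts. Among genes within 0.5 log2 CPM of their level, 88.1% varied less than Htr1a and 87.9% less than Htr5a. The share was 77% for Htr2c, 61.1% for Htr3a, 54.4% for Htr2a, 38.3% for Htr1b, 38.2% for Htr1f and 1.46% for Htr1d. Over the 28 libraries Htr1a spanned 1.10 to 10.5 CPM, a ratio of 9.57, and Htr5a 1.21 to 13.9 CPM, a ratio of 11.5, while Htr2a spanned 25.4 to 46.6 CPM, a ratio of 1.83.

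Htr1a and Htr5a varied together. With group means removed, their log2 CPM had a Pearson r of 0.88 and a Spearman correlation of 0.84 over 28 libraries. The permutation p (two-sided, 100000 shuffles within groups) was 1e-05 for r, the smallest these shuffles can give, and 0.00045 after adjustment over the 45 pairs of members computed. The direction was the same within each of the 7 groups, r was 0.82 without the 2 libraries farthest from the median of Htr1a, and 0.87 without the library that stood apart. Those 2 libraries, replicate 2 of psilocybin at 1 mg/kg and replicate 1 of psilocybin at 3 mg/kg, held the lowest values of both genes.

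Of the other 44 pairs, 3 had an adjusted p under 0.05 for r. Htr1b and Htr5a had r = 0.55 and a Spearman correlation of 0.63 (permutation p adjusted over the pairs 0.0315 and 0.0155), the same direction in 6 of 7 groups and r = 0.53 without the 2 libraries farthest from the median of Htr1b. The remaining pairs hold Htr4 (with Htr5a, r = 0.60) or Htr7 (with Htr1a, r = -0.59), whose counts are near 0, and they are given as values only. Htr1a and Htr1b had r = 0.55 and a Spearman correlation of 0.59 (permutation p adjusted over the pairs 0.0703 and 0.0414), with the same direction in 7 of 7 groups. Htr2a and Htr2c had r = -0.08 (adjusted p = 0.935), and no pair that holds Htr2a passed.

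The stretch of genome before Htr5a and Htr1b is shown because their levels moved together between animals. Many genes did so more closely: by r with Htr1b, Htr5a ranked 1744th among 15493 named genes. The 95th percentile of r with Htr1b over those genes was 0.625. Shared regulation was not tested. The sequences are the 250 bases upstream of the start on the gene's own strand, from RefSeq on GRCr8, a later build than that of the counts; 6 of the 10 members have an entry there (Htr2c, Htr1b, Htr1d, Htr1f, Htr5a and Htr7). The Htr5a stretch lies at chr4:8188486-8188735 on the minus strand, although the deposited table places the gene on the plus strand of rn6, and that of Htr1b at chr8:91414816-91415065 on the minus strand. Capitals mark a GC box, the letters GGGCGG.
Htr5a: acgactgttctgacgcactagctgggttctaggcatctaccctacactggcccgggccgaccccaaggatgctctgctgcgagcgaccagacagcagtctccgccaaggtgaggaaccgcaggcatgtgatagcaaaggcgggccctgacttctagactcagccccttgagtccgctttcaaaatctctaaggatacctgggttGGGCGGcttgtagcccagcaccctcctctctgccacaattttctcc
Htr1b: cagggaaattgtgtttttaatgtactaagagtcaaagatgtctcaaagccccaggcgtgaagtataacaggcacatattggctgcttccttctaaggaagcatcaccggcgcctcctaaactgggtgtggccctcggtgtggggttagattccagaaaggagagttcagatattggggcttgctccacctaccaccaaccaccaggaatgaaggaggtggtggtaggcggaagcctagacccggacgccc
Both strands were searched for the TATA box TATAAA, the GC box GGGCGG, the cAMP response element TGACGTCA, the E-box CACGTG and the Egr site GCGNGGGCG. Htr5a held 1 GC box, 46 to 41 bases before the start, which 30.5% of 33469 rat promoters of this length hold at least once, and none of the other letters. Htr1b held none of the 5. Their GC content was 58.4% and 52.4%, against a median of 51.2% over all promoters.

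Many other genes were more like Htr1a than Htr5a was. By likeness to Htr1a (Pearson r of log2 CPM with group means removed), Htr5a ranked 359th among 15493 named genes, and the 95th percentile of r with Htr1a over those genes was 0.831. The 2 genes most like Htr1a were Tet3, an enzyme that oxidises methylated DNA, with r = 0.95, and Slc6a6, the taurine transporter, with r = 0.95. Those most like Htr5a were Dlc1, with r = 0.95, and Ncam1, a neural adhesion molecule, with r = 0.94. Across 28 libraries Htr1a and Htr5a also followed features of the library: for the share of mitochondrial counts, which ran from 6.98 to 11.6%, r was -0.84 and -0.86 (permutation p adjusted over 112 relations 0.000112 for each). A second feature was the Spearman correlation, across genes, between gene length and a library's deviation from the mean of all libraries, from -0.323 to 0.283, with which r was 0.81 and 0.86 (adjusted p = 0.000112 for each).

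The group means of these features differed, but their ranges overlapped. The length correlation averaged -0.09 and -0.12 with psilocybin at 1 and 3 mg/kg, -0.09 and 0.03 with ketanserin, and 0.06 and 0.04 with both drugs, against 0.01 in vehicle animals. Given that correlation, the partial r of Htr1a with Htr5a was 0.60, and that of Htr1b with Htr5a was 0.18. With it as a covariate in the edgeR fit, chosen after seeing the data, 0 of 8 members were called against vehicle, and Htr5a after psilocybin at 3 mg/kg was at 0.07 where it had been at -0.30. Its part in the levels of Htr1a and Htr5a was not tested beyond these values.

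**Figure D4:**
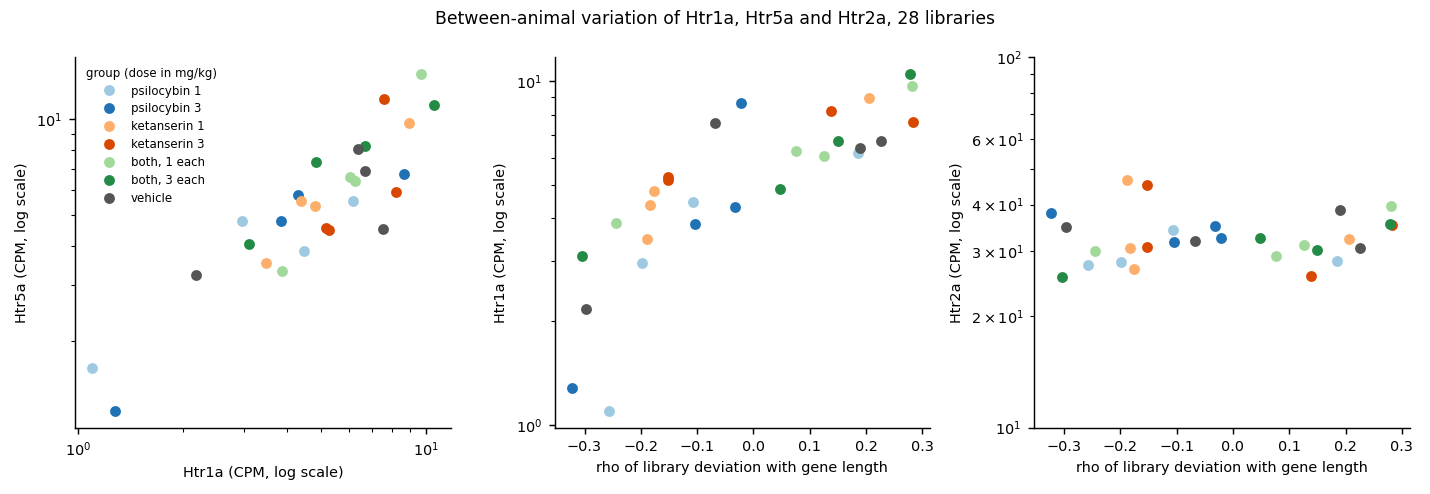
Left: Htr5a against Htr1a in 28 libraries (CPM, log axes), coloured by group. Middle and right: Htr1a and Htr2a (CPM, log axis) against the correlation of each library's deviation with gene length; Htr1a climbs with it (r = 0.81 with group means removed) and Htr2a does not (r = 0.09).

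Among the cell type lists, Htr2c followed the deep layer neuron markers on either summary of the list. It had r = 0.79 with the mean log2 CPM of 13 deep layer neuron markers (Spearman correlation 0.75, permutation p adjusted over 112 relations 0.000112), 0.78 without the 2 libraries farthest from the median of the list and 0.77 without the library that stood apart. With the summed CPM of the list on a log2 scale r was 0.61. Of the 13 markers 11 had a positive r with Htr2c, led by Ntsr1 at 0.71, Tle4 at 0.70, Syt6 at 0.66 and Rprm at 0.63, and 2 had a negative r, Etv1 at -0.21 and Tshz2 at -0.28. Ntsr1, Tle4 and Syt6 are known as markers of corticothalamic neurons of the deepest layer.

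The summed level of the deep layer list was 725 to 1001 and 839 to 999 CPM after psilocybin at 1 and 3 mg/kg, 698 to 951 and 760 to 950 CPM after ketanserin, and 766 to 942 and 699 to 1206 CPM after both drugs, against 738 to 1072 CPM in vehicle animals. All 13 markers were present, led by Crym and Pcp4, and Nxph4 was at 0 in 1 library. The groups overlapped, and the part of this list in the Htr2c differences between groups was not tested. The 2 genes most like Htr2c were Rwdd2a, with r = 0.87, and Sulf1, an extracellular sulfatase, with r = 0.79.

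Htr2c is also known for very high levels in choroid plexus. Of 9 choroid plexus markers present, 5 passed the filter, and the defining transcript Ttr averaged 2.08 CPM with a highest value of 15.3 CPM, while Folr1, Kl, Clic6 and Prlr were at 0 in 8 to 13 libraries. The summed level of 77.3 to 278 CPM came mostly from Igf2. Htr2c had r = 0.25 with the mean log2 CPM of this list (permutation p = 0.246, adjusted 0.613) and -0.23 with its sum. With 8 tested striatum markers it had r = 0.49 (adjusted p = 0.178), and of that list Six3 was at 0 in 19 libraries and Isl1 in 22.

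**Figure D5:**
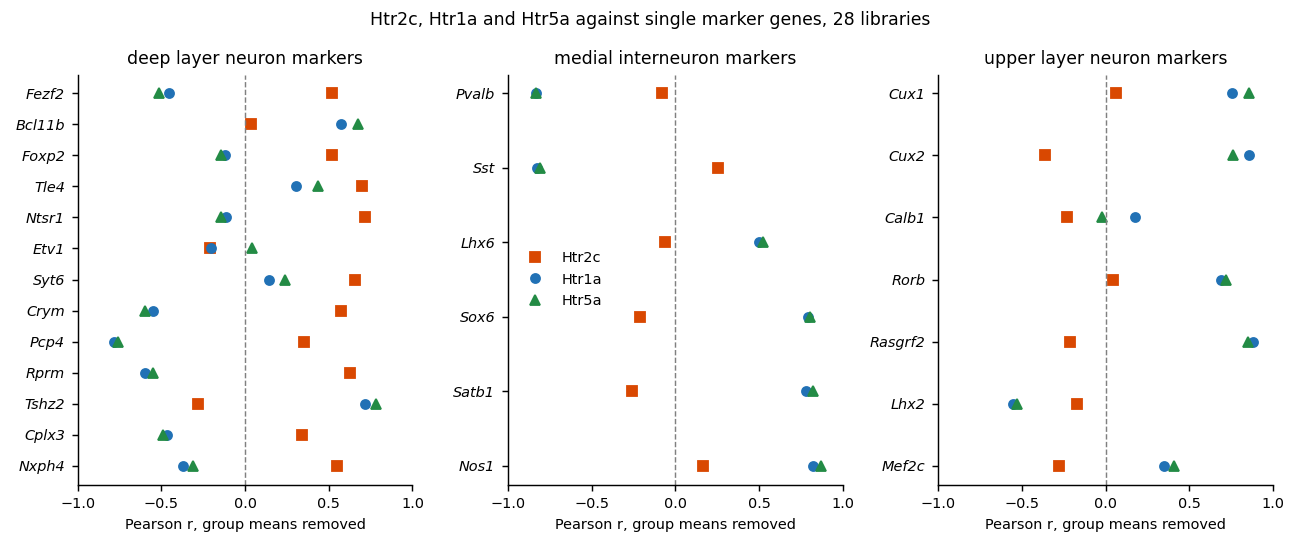
Pearson r (horizontal axis, group means removed, 28 libraries) of Htr2c, Htr1a and Htr5a with each tested marker of 3 neuron lists. Htr2c is positive with 11 of 13 deep layer markers, while Htr5a is at -0.83 with Pvalb and 0.87 with Nos1 of the same interneuron list.

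For Htr1a and Htr5a the sign of r with the medial interneuron list depended on its summary, while that with the upper layer and astrocyte lists did not. With the mean log2 CPM of the 6 medial interneuron markers Htr5a had r = 0.87, but with the summed CPM of the same list r was -0.85. Pvalb and Sst, the 2 most abundant markers, had r = -0.83 and -0.81 with Htr5a, while Nos1, Satb1, Sox6 and Lhx6 had 0.87, 0.82, 0.81 and 0.53. The sign also depended on the summary for the 10 caudal interneuron markers and for the striatum list. With the caudal list r was 0.44 on the mean and -0.89 on the sum for Htr5a, and 0.41 and -0.86 for Htr1a. With the striatum list it was 0.31 and -0.61 for Htr5a, and 0.22 and -0.77 for Htr1a. With the upper layer list r was 0.86 on the mean and 0.57 on the sum for Htr5a, and 0.87 and 0.58 for Htr1a, with Lhx2 at -0.53 for Htr5a and -0.56 for Htr1a, and Calb1 at -0.02 for Htr5a. With the 6 astrocyte markers r was 0.76 on the mean and 0.65 on the sum for Htr5a, and 0.71 and 0.61 for Htr1a (adjusted p on the mean 0.000112 and 0.000431). With the 6 microglia markers it was 0.63 on the mean and -0.03 on the sum for Htr5a, and 0.78 and 0.19 for Htr1a (adjusted p on the mean 0.0156 and 0.000407). The microglia list was split: 3 markers were positive and 3 negative with Htr5a, and 4 and 2 with Htr1a, with Aif1 at -0.73 for each. Of the astrocyte markers only Aldh1l1 was negative, at -0.23 for Htr5a and -0.26 for Htr1a. Single genes spread widely in r with these 2 members. Over 15493 named genes the 5th and 95th percentiles were -0.82 and 0.84 with Htr5a, and -0.80 and 0.83 with Htr1a. Both members also followed the length correlation and the mitochondrial share of the library. A link to these cell types was not tested. Htr3a, known from interneurons of the caudal eminence, had r = 0.20 with the mean of that list of 10 markers (permutation p = 0.421, adjusted 0.737) and -0.17 with its sum. Htr2a had r = 0.41 with the 8 cortical tissue markers on the mean (adjusted permutation p = 0.0306) and 0.11 on the sum.

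For the rest of the family the genes most alike were spread over functions. Htr2a had r = 0.72 with Map4k3, a MAP kinase kinase kinase kinase, and 0.71 with Acsl4, which activates arachidonic acid. Htr1b had r = 0.83 with Ubn2 and 0.82 with Mpp5, a polarity protein. Htr1f had r = 0.69 with Sdcbp, the scaffold syntenin, and 0.69 with Pcgf6, a Polycomb protein. Htr1d had r = 0.65 with AABR07064304.1 and 0.64 with Tmem260, and Htr3a 0.74 with AABR07025757.1 and 0.74 with AABR07007130.1. These are the highest of 13863 or 13864 named genes ranked per member, over 28 libraries.

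No gene of the pathway around the receptors was called. Of 72 listed genes of serotonin signalling with a single record or none, 69 were present and 64 tested: 1 of 4 other receptors, 8 of 10 genes of serotonin synthesis, transport and breakdown, all 14 present genes of the Gq arm, 17 of the Gi, Gs and channel arm, 17 present regulators and binding partners, and 7 transcription regulators. EdgeR called 0 of 64 in every comparison, and 0 to 2 had an unadjusted p under 0.05 in each. Of the 64, 18 had a higher fitted level than vehicle after psilocybin at 1 mg/kg and 25 at 3 mg/kg, where 47.6% and 47.8% of all genes did. The count was 34 and 30 after ketanserin, where 44.2% and 45.5% of all genes did, and 33 and 43 after both drugs, where 46.9% and 46.4% did. In the Gq arm 2 and 3 of 14 were higher after psilocybin at 1 and 3 mg/kg, 6 and 8 after ketanserin, and 9 and 10 after both drugs. In the Gi, Gs and channel arm these counts were 4, 5, 8, 7, 10 and 11 of 17, among genes of synthesis, transport and breakdown 2, 6, 5, 3, 3 and 4 of 8, among regulators and binding partners 7, 8, 10, 7, 9 and 14 of 17, and among transcription regulators 3, 3, 4, 4, 2 and 3 of 7. The Gs-coupled Htr6, at 7.86 ± 1.53 and 8.99 ± 2.96 CPM after psilocybin at 1 and 3 mg/kg against 9.30 ± 2.34 CPM in vehicle animals (SD, n = 4 each), differed by -0.24 and -0.05 on the log2 scale. Htr2b, Htr3b and Htr5b had 15, 4 and 35 counts over all 28 libraries.

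The genes with the lowest p in the test of any group difference were named for each list. Among regulators Dlg4, a postsynaptic scaffold that binds the Htr2a receptor, had log2 fold changes against vehicle of 0.15 and 0.20 for psilocybin at 1 and 3 mg/kg, 0.23 and 0.16 for ketanserin and -0.06 and 0.02 for both drugs. Its any-group p was 0.108, with an adjusted p of 1.00 by edgeR. Adrbk1, a G protein-coupled receptor kinase, had 0.15, 0.09, 0.17, 0.08, -0.06 and 0.09 in the same order. Maob, the monoamine oxidase of glia and serotonin neurons, had log2 fold changes of -0.11 to 0.13, Aldh2 of -0.18 to 0.17 and the monoamine transporter Slc29a4 of -0.35 to 0.15. Rgs19 had -0.16 to 0.17. In the Gq arm Prkcd, a protein kinase C, was between -0.40 and -0.09 in all 6 groups, with Plcb4 at -0.15 to 0.09 and Prkcb at -0.16 to 0.12. In the Gi and Gs arm Adcy8, an adenylyl cyclase, was at -0.27 to 0.12, Prkaca at -0.05 to 0.19 and Gnai3 at -0.10 to 0.15. Of transcription regulators the activity-induced Egr3 was at -0.29 and -0.36 after psilocybin at 1 and 3 mg/kg and at -0.01 to 0.12 in the other groups, Hes5 at -0.10 to 0.37 and Sp1 at -0.20 to 0.15. No transcription regulator had an unadjusted edgeR p below 0.341 and 0.138 against vehicle at these psilocybin doses. The lowest any-group p by edgeR was 0.411 among transcription regulators and 0.339 in the Gq arm. It was 0.211 in the Gi, Gs and channel arm and 0.243 for synthesis, transport and breakdown.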

How the data were processed

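The deposited tables hold raw read counts per gene record and, separately, FPKM, for 28 poly-A selected, directional libraries of rat prefrontal cortex. The library size that the FPKM imply was 0.915 to 1.07 times the total count, so they were not scaled by the total count alone. The submitters' processing notes name rn6 and the tools featureCounts 1.5.0-p3, StringTie 1.3.3b and HISAT2 2.0.5. Whether reads were counted by strand is not stated in the labels. Total counts were 12783067 to 18538414 per library, and 3842 records without a gene name took 1.99 to 4.46% of them.

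Counts were tested with edgeR 4.0.16 (R 4.3.3): filterByExpr with a minimum count of 10 left 17404 of 36387 records, scaling was by TMM, and 1 quasi-likelihood fit with robust dispersion covered all 28 libraries (21 residual degrees of freedom), with Benjamini-Hochberg adjustment over all tested genes and a threshold of 0.05. CPM were computed from the deposited counts and TMM factors. FPKM served only for levels between genes. Co-variation used log2 CPM (prior count 2) with group means removed and 100000 shuffles within groups, two-sided. P-values treat the animals of a group as separate replicates, as the labels do. The floor of 3 counts covers counting error only. Intervals of fold changes come from the quasi-likelihood fit and also cover variation between the animals of a group. Members, partner lists and marker lists were chosen with earlier results of these data known. For each list, the 3 genes with the lowest p for any group difference were named, and for each member the 2 most alike named genes with a mean log2 CPM above 0. Alternatives were DESeq2 1.42.0, its size factors in edgeR, no filter, only the groups compared, each library left out, and, chosen after seeing the data, the length correlation as covariate, partial correlations, values without the library that stood apart, and summed against mean marker levels. Promoter sequences are RefSeq's on GRCr8. The pipeline was tested on simulated data.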

Additional observations from a re-analysis of the deposited data

Results flagged for a closer look

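In 12 of the 70 sets of 4 libraries formed by 10 genes and 7 groups, the highest or lowest library lay far from the other 3 by Dixon's criterion. Chance gives about 1 in 20 for independent, normally distributed values. The criterion was applied to CPM without a log scale, and some members varied together, so that rate is only a rough guide. That rate does not apply to genes with a few counts per library, such as Htr7, where the other 3 libraries of each such group were at 0, or Htr4, Htr1d and Htr1f. Among the well measured genes, Htr2a was at 34.1 CPM in replicate 1 of psilocybin at 1 mg/kg, with the others at 27.5 to 28.2 CPM. Htr3a was at 5.16 CPM in replicate 3 of both drugs at 1 mg/kg of each, with the others at 10.5 to 11.3 CPM. Htr1b was at 5.56 CPM in replicate 4 of both drugs at 3 mg/kg of each, the library with the most records at 0, with the others at 2.16 to 2.57 CPM, and at 5.64 CPM in vehicle replicate 3, with the others at 1.85 to 2.37 CPM.

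Among the genes near the counting limit, Htr1d was at 1.15 CPM in replicate 4 of ketanserin at 1 mg/kg, with the others at 0.287 to 0.399 CPM. Htr1f was at 0.125 CPM in replicate 4 of psilocybin at 1 mg/kg, with the others at 0.655 to 0.756 CPM, and at 0.152 CPM in replicate 3 of both drugs at 1 mg/kg of each, with the others at 0.391 to 0.428 CPM. Htr4 was at 1.68 CPM in replicate 4 of both drugs at 3 mg/kg of each, with the others at 0 to 0.0620 CPM. Htr7 was the only value above 0 of its group at 0.071 CPM in replicate 1 of psilocybin at 3 mg/kg, at 0.0666 CPM in replicate 3 of ketanserin at 1 mg/kg, at 0.0759 CPM in replicate 3 of both drugs at 1 mg/kg of each and at 0.135 CPM in replicate 2 of both drugs at 3 mg/kg of each.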

How the results depend on the processing

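No member was called under any alternative tried. No paired analysis was possible because the replicate numbers follow accession order and pair no animals. With the length correlation as covariate, log2 fold changes against vehicle that changed sign were 0.105 for Htr1b and 0.0681 for Htr5a (psilocybin 3 mg/kg), -0.000541 for Htr2c, 0.187 for Htr1a and 0.0695 for Htr1b (ketanserin 1 mg/kg), and -0.00691 for Htr1a (both at 3 mg/kg). With only the groups compared, Htr2a after ketanserin at 1 mg/kg was at -0.00583. The cause was not tested.

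Counts of all genes called moved from 0 or a few. DESeq2 called 3 after psilocybin at 1 mg/kg, 1 after ketanserin at each dose and 1 after both at 1 mg/kg against vehicle, 1 for both against psilocybin alone at each dose, 1 for both at 3 mg/kg against ketanserin, 4 for psilocybin at 3 against 1 mg/kg, 2 for the pooled combination and 15 for any group. Fits of only the groups compared called 1, 1, 2, 1 and 2 against vehicle (psilocybin 1 and 3, ketanserin 1 and 3, both at 1 mg/kg), 1 for both at 3 mg/kg against psilocybin and 1 against ketanserin, and 0 for the pooled combination. No filter gave 0 for both at 3 mg/kg and for the pooled combination; the covariate gave 0 for these and 5 for psilocybin at 3 against 1 mg/kg. Without single libraries, counts ran from 0 to 4 for psilocybin at 3 against 1 mg/kg, 1 to 3 for any group and 0 to 1 for the others that moved.

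Without single libraries, log2 fold changes against vehicle that changed sign ran as follows. After psilocybin at 1 mg/kg, Htr1b ran from -0.0314 to 0.76. At 3 mg/kg Htr2a ran from -0.0503 to 0.0783, Htr1b from -0.29 to 0.41, Htr1d from -0.087 to 0.38, Htr1f from -0.0374 to 0.76 and Htr5a from -0.53 to 0.0113. After ketanserin at 1 mg/kg Htr2a ran from -0.17 to 0.094, Htr2c from -0.083 to 0.27, Htr1a from -0.43 to 0.10, Htr1b from -0.30 to 0.44, Htr1d from -0.68 to 0.20, Htr1f from -0.84 to 0.26 and Htr5a from -0.24 to 0.31. At 3 mg/kg Htr2a ran from -0.16 to 0.12, Htr1a from -0.0562 to 0.37, Htr1b from -0.0703 to 0.62, Htr5a from -0.18 to 0.44 and Htr3a from -0.18 to 0.0532. After both at 1 mg/kg Htr2a ran from -0.18 to 0.00148, Htr1a from -0.0791 to 0.37, Htr1b from -0.37 to 0.33, Htr1f from -0.39 to 0.23 and Htr5a from -0.059 to 0.66. At 3 mg/kg of each Htr2c ran from -0.064 to 0.34, Htr1a from -0.22 to 0.36 and Htr1b from -0.36 to 0.60.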
